A study of Mus musculus with 9 samples.

Results

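The RNA-seq libraries of CD11b+ bone marrow cells described here differed in how many of their counts fell on Rn45s, the gene entry for the precursor of ribosomal RNA, and 3 of 9 libraries were set against the other 6 by that share alone. A library was called high when more than 10% of its counts fell on Rn45s. This rule chose PBS replicate 1, EnzR EVs replicate 1 and EnzR EVs replicate 3, and left 6 low libraries, PBS replicates 2 and 3, EnzR EVs replicate 2 and all 3 EnzR EVs + HDL NPs libraries. The question was which genes follow this property of a library and which follow the treatment. All 9 mice were male C57BL/6 mice, 3 to 6 weeks old, with 3 in each group. The PBS group received 100 µl of PBS by tail vein on days 1, 3 and 5. The EnzR EVs group received 10 µg of EV protein in 100 µl on the same days, from extracellular vesicles (called exosomes in the labels) of the human prostate cancer line CWR-R1 made resistant to enzalutamide. The EnzR EVs + HDL NPs group received the same vesicles and, on days 0, 2 and 4, 100 µl of high-density lipoprotein-like nanoparticles, given as 1 µM in the labels and as 100 µM in the methods. Marrow was taken 24 h after the last injection, and CD11b+ cells were selected with beads, so that each library is a mixture of granulocytes, monocytes and other cells that carry this integrin. Nothing in the labels says that the high and low libraries were handled differently.

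Ribosomal RNA makes up most of the RNA of a cell, and total RNA libraries are made after its removal with probes. RNA polymerase I transcribes the 45S precursor that Rn45s stands for, and small nucleolar RNAs (snoRNAs) guide the chemical modification and cutting of that precursor in the nucleolus. Most mouse snoRNAs are cut out of the introns of host genes, and they carry no poly(A) tail. Box C/D snoRNAs guide methylation and hold short boxes called C and D near their ends, while H/ACA snoRNAs guide pseudouridylation and hold the letters ACA near their 3′ end. In these marrow cells the most abundant messenger RNAs come from neutrophils, which store S100a8, S100a9 and lactoferrin for their granules and cytoplasm.

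The values that chose the libraries are a description and were not tested. Rn45s held 42.7% of the counts of EnzR EVs replicate 1 (1099230 counts), 20.3% of PBS replicate 1 (1217383 counts) and 14.2% of EnzR EVs replicate 3 (1215076 counts). In the low libraries it held between 0.657% and 2.87%, and the highest of these was EnzR EVs + HDL NPs replicate 3. The library just inside the threshold was thus EnzR EVs replicate 3 at 14.2% and the library just outside it EnzR EVs + HDL NPs replicate 3 at 2.87%. The 3 high libraries were also the 3 shallowest. Without Rn45s they held 1476546, 4788704 and 7339411 counts, and the low libraries between 12851376 and 17902515. A high Rn45s share and a low depth therefore cannot be told apart in these libraries. The EnzR EVs + HDL NPs group has no high library.

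**Figure D1:**
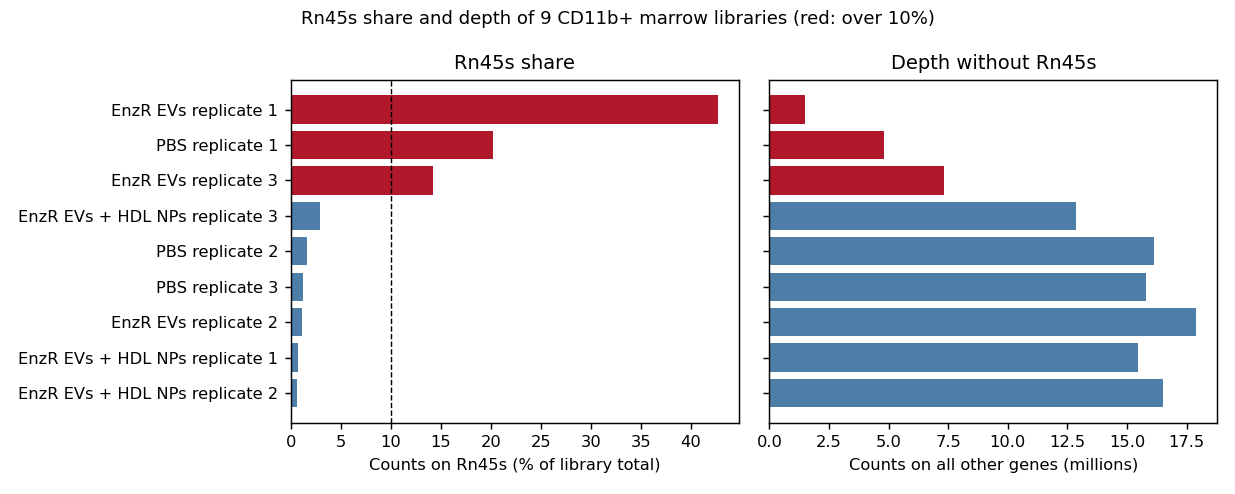
Horizontal bars give, for each of the 9 libraries, the percent of counts on Rn45s (left, dashed line at the 10% threshold) and the counts on all other genes (right), with high libraries in red and low libraries in blue. The 3 libraries over 10%, at 42.7%, 20.3% and 14.2%, are the 3 with the fewest other counts.

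Total counts per library ranged from 2575776 to 18110561 over 23337 genes. Once Rn45s was removed, 3 counts corresponded to between 0.179 and 1.845 CPM, the usual depth-scaled count, here with TMM scaling (the trimmed mean of M values), a floor that covers counting error only. Between pairs of low libraries Pearson's r of their log2 CPM values across genes was 0.98 to 0.993, between pairs of high libraries 0.91 to 0.967, and between a high and a low library 0.866 to 0.974. Myeloid markers were detected in both classes, but not all at a like level. S100a8, S100a9 and Ly6c2 were lower in each high library than in any low one (log2 fold changes -2.38, -2.15 and -1.41). Lyz2, at -0.60, did not pass. Itgam, which encodes CD11b, stood at 1569, 1634 and 1916 CPM in PBS replicate 1, EnzR EVs replicate 1 and EnzR EVs replicate 3 and between 1771 and 2249 CPM (median 2076) in the low libraries, and Csf1r, the receptor for the monocyte growth factor M-CSF, stood at 430, 239 and 379 CPM against 299 to 380 CPM (median 357).

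The sequences shown here are those of the 4 box C/D snoRNAs that rose in the high libraries, with the H/ACA snoRNA Snora7a, shown because the gene around it fell. Other H/ACA snoRNAs rose by more than Snora7a. They were read from the GRCm38 assembly (mm10) in the direction of the RNA, 5′ to 3′, with capitals for the first TGATGA (box C) and the last CTGA (box D) of the box C/D snoRNAs and for the last ACA of the H/ACA snoRNA.
Snord17: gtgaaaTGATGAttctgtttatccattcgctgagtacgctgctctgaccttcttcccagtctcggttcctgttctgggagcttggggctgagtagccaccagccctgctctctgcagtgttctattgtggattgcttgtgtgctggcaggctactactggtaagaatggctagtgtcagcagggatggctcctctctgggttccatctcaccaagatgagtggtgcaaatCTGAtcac
Snord15a: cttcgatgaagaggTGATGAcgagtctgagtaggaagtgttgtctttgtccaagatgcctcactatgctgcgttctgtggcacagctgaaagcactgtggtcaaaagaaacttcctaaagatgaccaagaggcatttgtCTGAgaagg
Snord15b: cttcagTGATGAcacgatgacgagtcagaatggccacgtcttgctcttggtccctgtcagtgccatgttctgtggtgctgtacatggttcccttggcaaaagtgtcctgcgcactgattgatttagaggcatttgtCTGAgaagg
Snord22: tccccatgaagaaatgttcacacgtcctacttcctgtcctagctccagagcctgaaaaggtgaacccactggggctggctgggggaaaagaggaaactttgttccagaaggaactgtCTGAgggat
Snora7a: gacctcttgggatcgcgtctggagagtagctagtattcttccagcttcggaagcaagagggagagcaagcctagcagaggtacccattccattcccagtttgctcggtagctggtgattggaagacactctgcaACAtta

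Snord17 lies at chr2:144265979-144266216 on the minus strand within the span of Snx5, which encodes a sorting nexin of endosomes. Snord15a (chr7:99482785-99482932) and Snord15b (chr7:99479563-99479707) both lie on the minus strand within Rps3, which encodes a protein of the small ribosomal subunit. Snord22 lies at chr19:8725866-8725991 on the plus strand within the noncoding gene Snhg1, and Snora7a at chr6:115807975-115808114 on the minus strand within Rpl32, which encodes a protein of the large ribosomal subunit. Snord15a and Snord15b are identical at 98 of 152 aligned positions (64.5%) and share their last 21 bases. TGATGA is present in the direction of the RNA in 50 of the 73 Snord genes of the counts with a sequence (68.5%) and on the other strand in 1 (1.37%), and Snord22 does not hold these letters. CTGA is present in 73 of 73 in the direction of the RNA and in 22 (30.1%) on the other strand.

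Each of these snoRNAs was higher in the high libraries, and least so in EnzR EVs replicate 3, the high library with the smallest Rn45s share. Snord17 stood at 1021 CPM in PBS replicate 1, 2444 CPM in EnzR EVs replicate 1 and 93.3 CPM in EnzR EVs replicate 3, and between 6.68 and 73.7 CPM (median 11.8) in the low libraries. The classes did not overlap, and the highest low library was EnzR EVs + HDL NPs replicate 3. The log2 fold change of Snord17 was 6.38 ± 1.55 (SE; edgeR quasi-likelihood test, adjusted p = 0.0426), in a fit that held treatment as a second term.

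Snord15a stood at 59.6, 78.7 and 14.1 CPM in PBS replicate 1, EnzR EVs replicate 1 and EnzR EVs replicate 3 and between 1.77 and 5.86 CPM (median 2.14) in the low libraries, a log2 fold change of 4.83 ± 0.58 with the smallest adjusted p of all genes tested (edgeR, 0.0101). Snord15b stood at 248, 247 and 88.2 CPM against 11.1 to 70.5 CPM (median 13.6), a log2 fold change of 4.01 ± 0.76. Both Rps3 snoRNAs separated the classes. Snord22 stood at 72.5, 162 and 17.1 CPM against 4.06 to 9.61 CPM (median 4.78), a log2 fold change of 4.04 ± 0.78, again with no overlap. Snora7a, at 18.9, 20.9 and 4.25 CPM, overlapped the low libraries, which reached 4.53 CPM (median 1.98), and its log2 fold change was 3.06 ± 0.53 (edgeR, adjusted p = 0.014). Of these 5 snoRNAs, the classes overlapped in Snora7a alone. Snord17, Snord15a, Snord15b and Snord22 are among the genes named below by a rule that required no overlap.

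Of 61 snoRNA and small Cajal body RNA genes that passed the filter on low counts, out of 119 in the counts, 12 rose at an edgeR adjusted p under 0.05 and 0 fell. Over all 13050 genes tested, 812 (6.22%) rose and 794 (6.08%) fell. The median log2 fold change was 1.00 over the snoRNA genes and 0.00105 over all genes tested. Members at low levels can pass the filter mainly through the high libraries, which favours a rise. Snora21 had a median of 0.385 CPM in the low libraries, against 2.78, 5.53 and 1.19 CPM in the high ones. Snora64 had a low median of 0.637 CPM. The count of 12 and the median of 1.00 are therefore not free of that selection. The other members that rose were Snora74a, at 268, 424 and 18.2 CPM against 3.21 to 17.2 CPM, and Snora23, Snora21, Snora43, Snora61, Snora64 and Scarna2. The snoRNA genes together held 0.220%, 0.422% and 0.0457% of the counts without Rn45s in PBS replicate 1, EnzR EVs replicate 1 and EnzR EVs replicate 3, and between 0.0208% and 0.0358% in the low libraries.

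Most genes around the snoRNAs had smaller differences than the snoRNAs. A tested gene on the same strand surrounds 46 of 59 tested snoRNA and small Cajal body RNA genes with a position, and 37 such genes do so in all. The median log2 fold change of those 46 small RNA genes was 1.02, and that of the 37 surrounding genes was -0.01. The small RNA gene had the more positive value of the pair in 35 of 46. Small RNA genes at low levels can be among the 46 mainly through the high libraries. The median of 1.02 and the count of 35 are therefore not free of that selection. Of the 37 surrounding genes, 2 rose and 2 fell, beside 6.22% and 6.08% of all genes tested, so their shares were near those of all genes. Rps3 stood at 431, 419 and 401 CPM in the high libraries and between 266 and 461 CPM (median 419) in the low ones, with a log2 fold change of -0.07 ± 0.19. Snx5, around Snord17, had a log2 fold change of -0.16 ± 0.17. Rpl32, around Snora7a, fell by 1.64 on the log2 scale (SE 0.37; edgeR, adjusted p = 0.0224) while Snora7a rose. In some pairs an annotated exon of the surrounding gene overlaps the small RNA gene. Rpl32 with Snora7a, Rps3 with Snord15b and Snhg1 with Snord22 are among them. How reads in such overlaps were divided was not tested. The surrounding genes were looked up after the snoRNA values were seen.

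**Figure D2:**
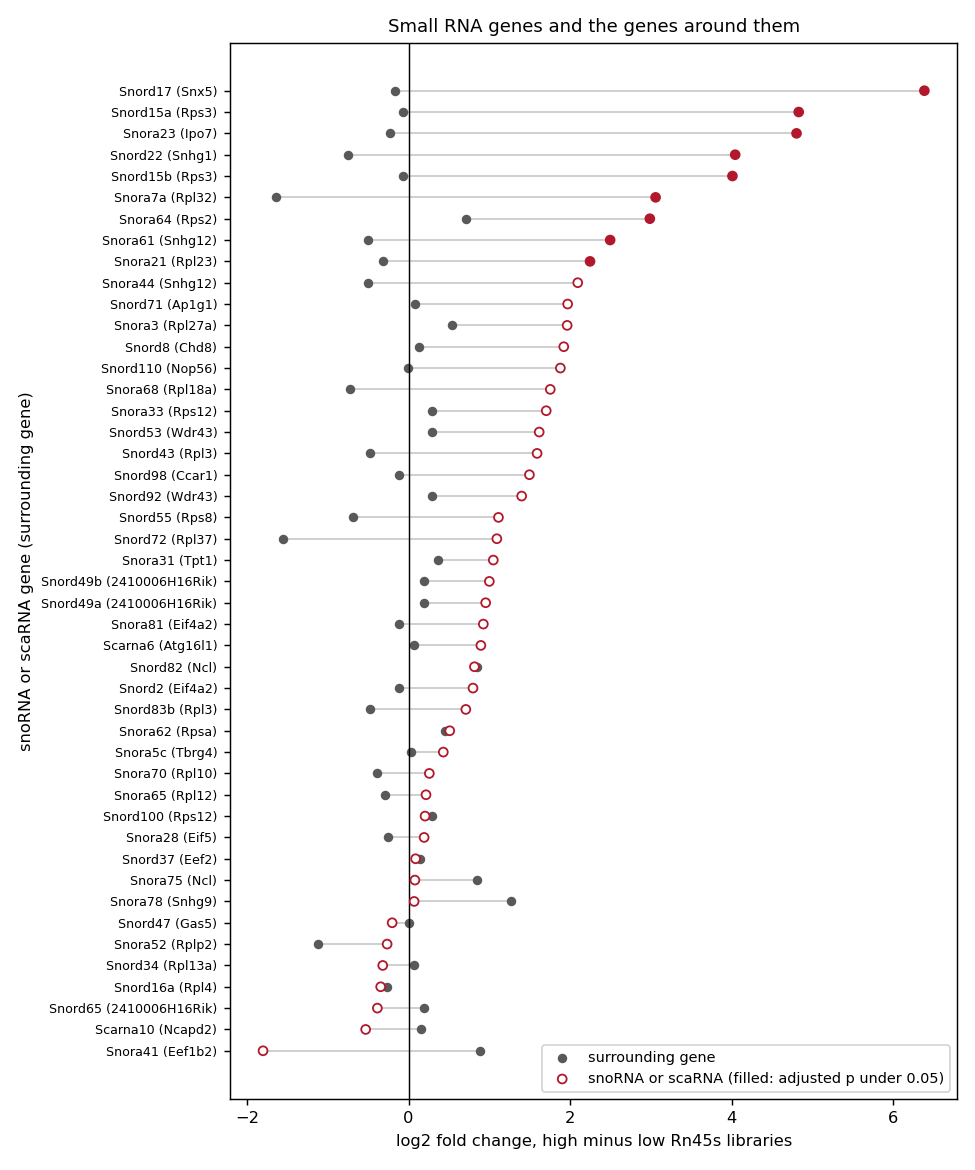
Each row is 1 of 46 small RNA genes with its surrounding gene in parentheses, and the horizontal axis is the log2 fold change between high and low Rn45s libraries, for the small RNA (red circle, filled where the adjusted p is under 0.05) and the surrounding gene (grey point). The red circles have a median of 1.02 and reach 6.38, while the grey points are spread around a median of -0.01.

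Other short or polymerase III transcripts rose as well. Of 9 tested genes for polymerase III and spliceosomal small RNAs, 5 rose and 0 fell, beside 6.22% and 6.08% of all genes, with a median log2 fold change of 1.64. Among the 5, Snora74a is a snoRNA that is also counted with the snoRNAs, and Terc is neither a polymerase III nor a spliceosomal RNA. Rpph1, the RNA of the enzyme RNase P that trims transfer RNA precursors, stood at 13990 CPM in PBS replicate 1, 10520 CPM in EnzR EVs replicate 1 and 3205 CPM in EnzR EVs replicate 3, against 1166 to 2963 CPM (median 1722) in the low libraries. The classes did not overlap, and the log2 fold change was 1.98 ± 0.42 (edgeR, adjusted p = 0.0194). Terc, the RNA template of telomerase, stood at 28.2, 33.2 and 16.3 CPM against 5.62 to 8.66 CPM (median 7.21), a log2 fold change of 1.64 ± 0.26.

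Vaultrc5, a vault RNA, and Rnu12, an RNA of the minor spliceosome, rose by 3.07 ± 0.73 and 2.78 ± 0.74 on the log2 scale from levels under 1 CPM in the low libraries. At such levels a gene can pass the filter on low counts mainly through the high libraries, which favours a rise. The classes overlapped in Rnu12, at 0.929 CPM in EnzR EVs replicate 3 against up to 0.937 CPM in the low libraries. Rmrp, the RNA of the related enzyme RNase MRP, did not pass. It stood at 1355, 663 and 511 CPM against 359 to 682 CPM (median 469), so that PBS replicate 1 alone lay above the low libraries. Of 42 tested microRNA genes, whose reads here cover precursors and not mature microRNAs, 5 rose (11.9%, beside 6.22% of all genes) and 0 fell (median log2 fold change 1.02). The counts hold 662 microRNA genes. Those at low levels, such as Mir1955 with a median of 0.566 CPM in the low libraries, can pass the filter mainly through the high libraries. The count and median are therefore not free of that selection. One of the 5, Mir1949, has the biotype snoRNA in the annotation, and of the 41 tested genes with the biotype miRNA 4 rose (9.76%). The highest of the list was Mir142, an abundant microRNA gene of blood cells, at 17.1, 17.8 and 26.3 CPM against 6.63 to 24 CPM (median 9.76), with a log2 fold change of 1.39 ± 0.39 and overlapping classes.

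With TMM scaling, which centres the genes, 812 rose and 794 fell, and with library size as the only scaling 1218 rose and 490 fell. The class term was estimated from the PBS and EnzR EVs groups, in which both classes occur, since the treatment term takes up the mean of the EnzR EVs + HDL NPs group. Among genes tested, 2024 (15.5%) had their 3 high libraries above every low library and 2207 (16.9%) had them below. Of the 812 genes that rose, 764 did not overlap, and of the 794 that fell, 739 did not. The median log2 fold change of those that rose was 1.01, and 72 of them rose by more than 2. The median of those that fell was -0.93, and 36 of them fell by more than 2 on that scale. EnzR EVs replicate 1, the library with the largest Rn45s share, was the highest of all 9 libraries in 677 genes that rose (83.4%) and the lowest in 666 that fell (83.9%). The classes came from the counts and not from an assignment, so the p-values compare these libraries. The counts of called genes rest on single libraries. Without PBS replicate 1 edgeR called 0 genes in either direction, without EnzR EVs replicate 2 it called 2 higher and 0 lower, without PBS replicate 2 it called 114 and 94 and without PBS replicate 3 it called 101 and 83. Without EnzR EVs replicate 1 it called 1100 and 1062, of which 784 of the higher genes were among the 812. Without EnzR EVs replicate 3 it called 1614 and 1591. With the PBS and EnzR EVs libraries alone it called 13 and 12. In the full fit 4118 genes had an unadjusted p under 0.05.

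The same genes are described here within the EnzR EVs + HDL NPs group, whose 3 libraries are all low. This is a description and not independent support, since the rule read the Rn45s share of these libraries too and they enter the fit that called the genes through its estimate of the spread, although their mean is removed from the class term. Within that group, replicate 3 has the largest Rn45s share, 2.87% against 0.763% and 0.657%. Of the 812 genes that rose with the class, 474 (58.4%) were higher in replicate 3 than in both other replicates of that group and 111 (13.7%) were lower than in both. Of the 794 genes that fell, 550 (69.3%) were lower in replicate 3 than in both others and 66 (8.31%) were higher. Over all 13050 genes the shares were 33.4% higher and 34.5% lower. Across these genes, which are not independent replicates, the difference of replicate 3 from the mean of the others had a Pearson's r of 0.331 and a Spearman's rho of 0.317 with the log2 fold change of the class. This is 1 library against 2, and no test was made. Replicate 3 is also the shallowest of the 3.

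Among called genes whose classes do not overlap and whose mean log2 CPM is at least 2, the 12 largest increases and the 12 largest decreases are named here. Larger fold changes occurred outside this rule, up to 9.26 and down to -3.94. Of the 12 increases, 5 are snoRNA genes and 7 are not. Lars2, the leucyl transfer RNA synthetase of mitochondria, whose mouse locus holds a stretch that resembles ribosomal RNA, stood at 1931 CPM in PBS replicate 1, 2541 CPM in EnzR EVs replicate 1 and 1242 CPM in EnzR EVs replicate 3, and between 43.6 and 322 CPM (median 108) in the low libraries. It rose by 3.79 ± 0.90 on the log2 scale (edgeR, adjusted p = 0.034), and the highest low library was again EnzR EVs + HDL NPs replicate 3. Of the 4 tested loci listed for their likeness to ribosomal RNA, Lars2 alone had a positive log2 fold change, and the median was -0.38. The other 3 had their high libraries below every low one, as did 16.9% of all genes tested, and 4 loci are too few to set against that share. Of these 3 loci Filip1l passed, at 16.3, 14.1 and 14.3 CPM against 23.4 to 40.7 CPM (median 33.9), a log2 fold change of -1.07 ± 0.22.

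Ptma, the gene of the small acidic nuclear protein prothymosin alpha, stood at 1736, 4248 and 974 CPM against 84.9 to 330 CPM (median 172), a log2 fold change of 3.51 ± 0.65. Anp32b, another acidic nuclear protein, stood at 182, 342 and 180 CPM against 21.6 to 81.1 CPM (median 29.7), a log2 fold change of 2.80 ± 0.47. Rbbp4, a histone-binding subunit of several chromatin complexes, stood at 908, 5149 and 660 CPM against 206 to 258 CPM (median 225), a log2 fold change of 2.74 ± 0.69. None of these 3 genes overlapped between the classes, which the rule for named genes required. Ptma and Anp32b have processed copies elsewhere in the genome, and reads shared with such copies could be counted differently. The named genes that rose also include 5730408K05Rik (log2 fold change 5.53), Zfp931 (3.50) and 4930413G21Rik (2.94), of which 5730408K05Rik has no match in the annotation used.

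The largest of the 12 named decreases was in Ear6, a ribonuclease gene of eosinophils, at 3.98 CPM in PBS replicate 1, 0 CPM in EnzR EVs replicate 1 and 10.8 CPM in EnzR EVs replicate 3, against 23 to 127 CPM (median 79.5) in the low libraries. It fell by 3.82 ± 0.80 on the log2 scale (edgeR, adjusted p = 0.0248). Ear2, its relative, stood at 1.59, 0 and 1.46 CPM against 5 to 14.5 CPM (median 9.86) and fell by 3.01 ± 0.55. The 2 genes belong to a family of near-identical copies, so how reads were divided among them is uncertain. Other eosinophil and basophil genes did not share one direction. Of 19 tested basophil, mast cell and eosinophil genes 4 fell (Ear2, Ear6, Il4 and Ccr3; 21.1%, beside 6.08% of all genes) and 1 rose (Gata2), with a median of -0.87, while Prg2, the eosinophil major basic protein and the highest of the list, had a log2 fold change of 0.42 ± 0.32 that did not pass. In bulk samples fewer cells of a type and less RNA per cell cannot be told apart.

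Of the other named genes that fell, Slc15a2, a peptide transporter, stood at 3.18, 1.23 and 1.06 CPM against 3.52 to 21.6 CPM (median 14.4), a log2 fold change of -3.03 ± 0.59. Ube2e1, a ubiquitin-conjugating enzyme, stood at 1.99, 0 and 0.929 CPM against 5.39 to 8.26 CPM (median 7.22), a log2 fold change of -2.53 ± 0.45. BC100530 stood at 1.79, 0 and 2.52 CPM against 4.22 to 12.5 CPM (median 11.1), a log2 fold change of -2.59 ± 0.52. The classes did not overlap in any of the 3, which the rule for named genes required. Mthfs, an enzyme of folate metabolism, stood at 1.19, 0.615 and 0.531 CPM against 2.34 to 7.55 CPM (median 4.6), a log2 fold change of -2.56 ± 0.57, but with all libraries thinned to equal depth its log2 fold change was 0.20.

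**Figure D3:**
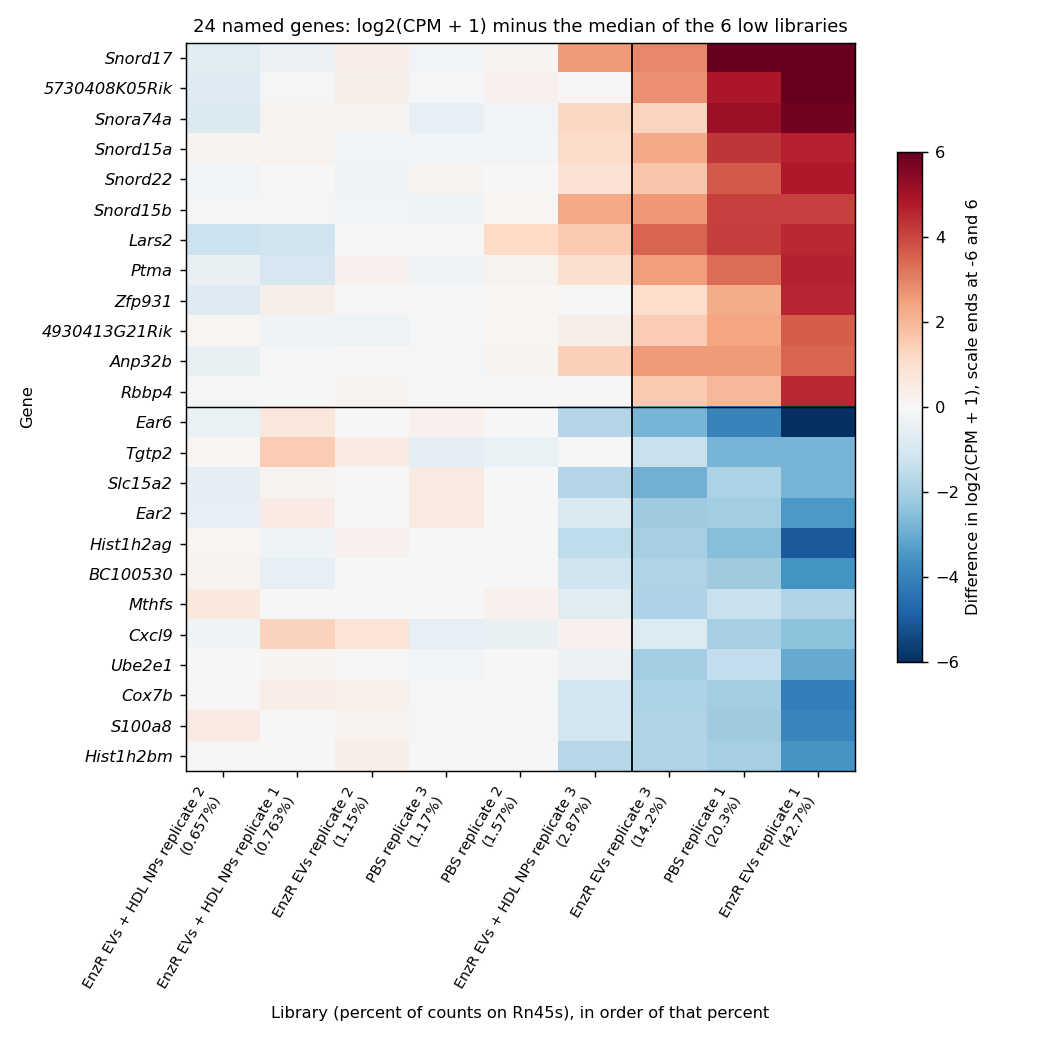
Rows are the 12 genes with the largest increases and the 12 with the largest decreases among called genes whose classes do not overlap and whose mean log2 CPM is at least 2, columns are the 9 libraries in order of their Rn45s percent, and colour gives log2(CPM + 1) minus the median of the 6 low libraries (red above, blue below). In most rows the colours deepen from EnzR EVs + HDL NPs replicate 3, the last column before the black line, to EnzR EVs replicate 1 at 42.7%.

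A part of the late granulocyte genes fell. Of 31 tested genes for granule and other proteins of maturing neutrophils 12 fell (38.7%, beside 6.08% of all genes) and 0 rose, and their median log2 fold change was -0.63. S100a8, a subunit of the calcium-binding protein calprotectin, stood at 7042 CPM in PBS replicate 1, 1956 CPM in EnzR EVs replicate 1 and 8759 CPM in EnzR EVs replicate 3, and between 13980 and 42950 CPM (median 30430) in the low libraries. Its partner S100a9 stood at 11170, 2498 and 13940 CPM against 25540 to 57580 CPM (median 40205). Both separated the classes, with log2 fold changes of -2.38 ± 0.52 and -2.15 ± 0.52 (edgeR, adjusted p = 0.0204 and 0.0263). For S100a8 the rule for named genes required this separation.

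Mmp8, a neutrophil collagenase, stood at 1169, 608 and 1416 CPM against 2404 to 3877 CPM (median 2892), a log2 fold change of -1.42 ± 0.30. Lcn2, the iron-siderophore binder lipocalin 2, fell by 1.32 ± 0.38, Fpr1, a receptor for bacterial formyl peptides, by 1.85 ± 0.34, and Anxa1, the gene of annexin A1, by 1.20 ± 0.31 on the log2 scale, and none of them overlapped. Ltf, which encodes lactoferrin, stood at 13850, 9551 and 18140 CPM against 15870 to 24140 CPM (median 19775) and did not pass (log2 fold change -0.55 ± 0.28). The summed level of the list was between 50650 and 101300 CPM in the high libraries and between 121500 and 202600 CPM in the low ones. Of 11 tested early granule genes 1 rose (Prss57; 9.09%, beside 6.22% of all genes) and 0 fell, too few genes to set against the shares of all genes, and Mpo, the gene of myeloperoxidase, had a log2 fold change of 0.42 ± 0.30. The 10 most abundant genes of each library took between 8.88% and 11.6% of the counts without Rn45s in the high libraries and between 12.8% and 18.4% in the low ones.

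Some monocyte and macrophage genes fell. Of 30 tested monocyte genes 7 fell (23.3%, beside 6.08% of all genes) and 1 rose (median -0.19). Ly6c2, a surface marker of inflammatory monocytes, stood at 254, 113 and 276 CPM against 331 to 669 CPM (median 556), a log2 fold change of -1.41 ± 0.31, and Ms4a6b stood at 21.3, 14.1 and 29.9 CPM against 57.3 to 113 CPM (median 77.1), a log2 fold change of -1.84 ± 0.29. The gene that rose was Psap, the precursor of the saposins of lysosomes, at 3867, 5653 and 2825 CPM against 1761 to 1967 CPM (median 1851), with a log2 fold change of 1.08 ± 0.25. Of 22 tested marrow macrophage genes 6 fell (27.3%) and 0 rose (median log2 fold change -0.48), among them Siglec1, the sialoadhesin of resident macrophages (-0.96 ± 0.23), Hmox1, C1qc, Mrc1, Spic and Itgad. With library size alone as the scaling, which shifted the median of all genes to 0.14, 3 macrophage genes fell, and over all genes 490 fell in place of 794.

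A part of the interferon-stimulated genes fell. Of 54 tested, 18 fell (33.3%, beside 6.08% of all genes) and 0 rose, with a median log2 fold change of -0.77. The median difference between high and low libraries was -0.49 within PBS and -1.11 within EnzR EVs. Not every member was lower within PBS, where the difference was 1.22 for Isg15, a ubiquitin-like protein, and 0.82 for Ifitm1. Samd9l, an antiviral factor, stood at 310, 244 and 438 CPM against 667 to 996 CPM (median 847), a log2 fold change of -1.29 ± 0.22. The classes did not overlap in this gene.

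Ifit3, which encodes an antiviral RNA-binding protein, stood at 5.76, 4.3 and 17.8 CPM against 14.5 to 50.4 CPM (median 33.6), a log2 fold change of -1.71 ± 0.34 with an overlap, since the low PBS libraries were also low. Tgtp2, an interferon-induced GTPase, stood at 0, 0 and 1.73 CPM against 3.73 to 18.4 CPM (median 5.86), and Cxcl9, a chemokine induced by interferon gamma, at 0.398, 0 and 2.12 CPM against 2.91 to 13.6 CPM (median 4.66). Their log2 fold changes were -3.15 ± 0.78 and -2.56 ± 0.68 (edgeR, adjusted p = 0.0279 and 0.0344). The zeros in EnzR EVs replicate 1 lie under its floor of 1.845 CPM.

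The replication-dependent histone genes, whose messenger RNAs end in a stem-loop and not a poly(A) tail, split in 2 directions. Of 60 tested, 25 fell (41.7%, beside 6.08% of all genes) and 6 rose (10.0%, beside 6.22%), with a median of -0.69. Of the 47 on chromosome 13, which holds the main histone cluster, 24 fell and 1 rose (median -1.05), and of the 13 elsewhere 1 fell and 5 rose (median 0.80). This division by position was made after the values were seen. Hist1h2ag, an H2A gene, stood at 4.57, 0 and 7.3 CPM against 10.3 to 38.2 CPM (median 31.7), a log2 fold change of -2.82 ± 0.52. Hist1h2bm, an H2B gene, stood at 26.6, 8.61 and 30.8 CPM against 33.2 to 141 CPM (median 109), a log2 fold change of -2.33 ± 0.46.

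In the other direction Hist3h2a stood at 212, 370 and 176 CPM against 57.9 to 87.2 CPM (median 65.3), a log2 fold change of 1.66 ± 0.24, and Hist2h4 at 325, 362 and 250 CPM against 89.4 to 158 CPM (median 99.2), a log2 fold change of 1.34 ± 0.20. These 4 genes did not overlap between the classes, which the rule for named genes required of Hist1h2ag and Hist1h2bm. Histone genes are near-identical copies of each other, and their reads may have been divided among copies or dropped, so single members are uncertain. The summed level of the list overlapped, with 7501 to 9253 CPM in the high libraries and 6514 to 12660 CPM in the low ones.

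Single genes of the ribosome and the respiratory chain passed in both directions. Of 82 tested cytosolic ribosomal protein genes 6 rose (7.32%, near the 6.22% of all genes) and 10 fell (12.2%, beside 6.08%), with a median log2 fold change of -0.25. Rps9 stood at 1434, 1559 and 1133 CPM against 519 to 622 CPM (median 551) and rose by 1.27 ± 0.18, and Rplp1 rose by 1.45 ± 0.26 on the log2 scale. Rpl32, named above with Snora7a, was among those that fell. Of 79 tested nuclear genes of the respiratory chain 11 rose (13.9%) and 6 fell (7.59%, near the share of all genes), with a median of 0.06. Ndufa3 of complex I stood at 102, 134 and 80.1 CPM against 39.5 to 45.7 CPM (median 42.6), a log2 fold change of 1.24 ± 0.19, while Cox7b of complex IV stood at 8.15, 1.23 and 9.55 CPM against 16.6 to 51.3 CPM (median 38.3), a log2 fold change of -2.46 ± 0.46. Cox4i1, also of complex IV, stood at 369, 304 and 301 CPM against 177 to 226 CPM (median 196) and rose by 0.62 ± 0.15, so that members of complex IV went both ways. The genes of these families have processed copies in the genome, which may share reads with them.

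RNA polymerase I and the factors that process its transcript were measured by 67 genes, of which 5 rose and 0 fell, beside 6.22% of all genes that rose, so their share was near that of all genes. The 5 were Ubtf, the upstream binding factor of ribosomal DNA, at 166, 320 and 200 CPM against 106 to 132 CPM (median 110), Ncl, the gene of nucleolin, at 200, 249 and 160 CPM against 81 to 157 CPM (median 112), and Utp3, Rrp12 and Rrs1, which act in ribosome assembly. Their log2 fold changes lay between 0.84 (Ncl) and 1.57 (Rrs1).

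Of 34 immediate-early and stress genes 6 rose and 1 fell, beside 6.22% and 6.08% of all genes, with a median log2 fold change of 0.46. Ier2, an immediate-early gene, stood at 637, 994 and 525 CPM against 138 to 305 CPM (median 208), a log2 fold change of 1.75 ± 0.32. Jund, an AP-1 subunit, stood at 215, 436 and 141 CPM against 47.7 to 92.9 CPM (median 79.6), a log2 fold change of 1.64 ± 0.39. Klf2 rose by 1.52 ± 0.30, and Jun by 1.02 ± 0.19, while Fos, the highest of the list, had a log2 fold change of -0.32 that did not pass. Of 17 heat shock genes 3 rose (Hspa1a, Hspd1 and Hspa4; 17.6%) and 1 fell (Dnajb1; 5.88%, near the share of all genes). Hspa1a had a median of 0.887 CPM in the low libraries and can pass the filter mainly through the high ones. Its classes overlapped.

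Of 49 S phase genes 9 rose (18.4%) and 1 fell (2.04%), and of 54 G2/M phase genes 8 rose (14.8%) and 2 fell (3.70%), beside 6.22% and 6.08% of all genes. Their medians, -0.01 and 0.07, changed sign between settings. Ube2c, which encodes a ubiquitin-conjugating enzyme of mitosis, stood at 153, 298 and 169 CPM against 51.5 to 76.5 CPM (median 58.6), a log2 fold change of 1.54 ± 0.21. Mki67, the gene of the proliferation marker Ki-67, stood at 862, 571 and 814 CPM against 1161 to 1669 CPM (median 1278), a log2 fold change of -0.79 ± 0.21. Neither overlapped between the classes. Genes of proliferating cells thus did not share a direction. Of 21 tested B lineage and plasma cell genes 3 rose (Vpreb3, Dntt and Bach2, 14.3% beside 6.22% of all genes) and 0 fell. Vpreb3 and Dntt had medians of 0.543 and 1.34 CPM in the low libraries. Such genes can pass the filter on low counts mainly through the high libraries, so this count is not free of that selection. The classes overlapped in Vpreb3 and Bach2. The summed level of that list leaned the other way, with an overlap, at 900.8 to 1375 CPM in the high libraries and 1324 to 1615 CPM in the low ones. In T and NK cell genes 0 of 26 passed in edgeR, where Nkg7, the highest, had a log2 fold change of 0.61 at an unadjusted p of 0.0265.

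**Figure D4:**
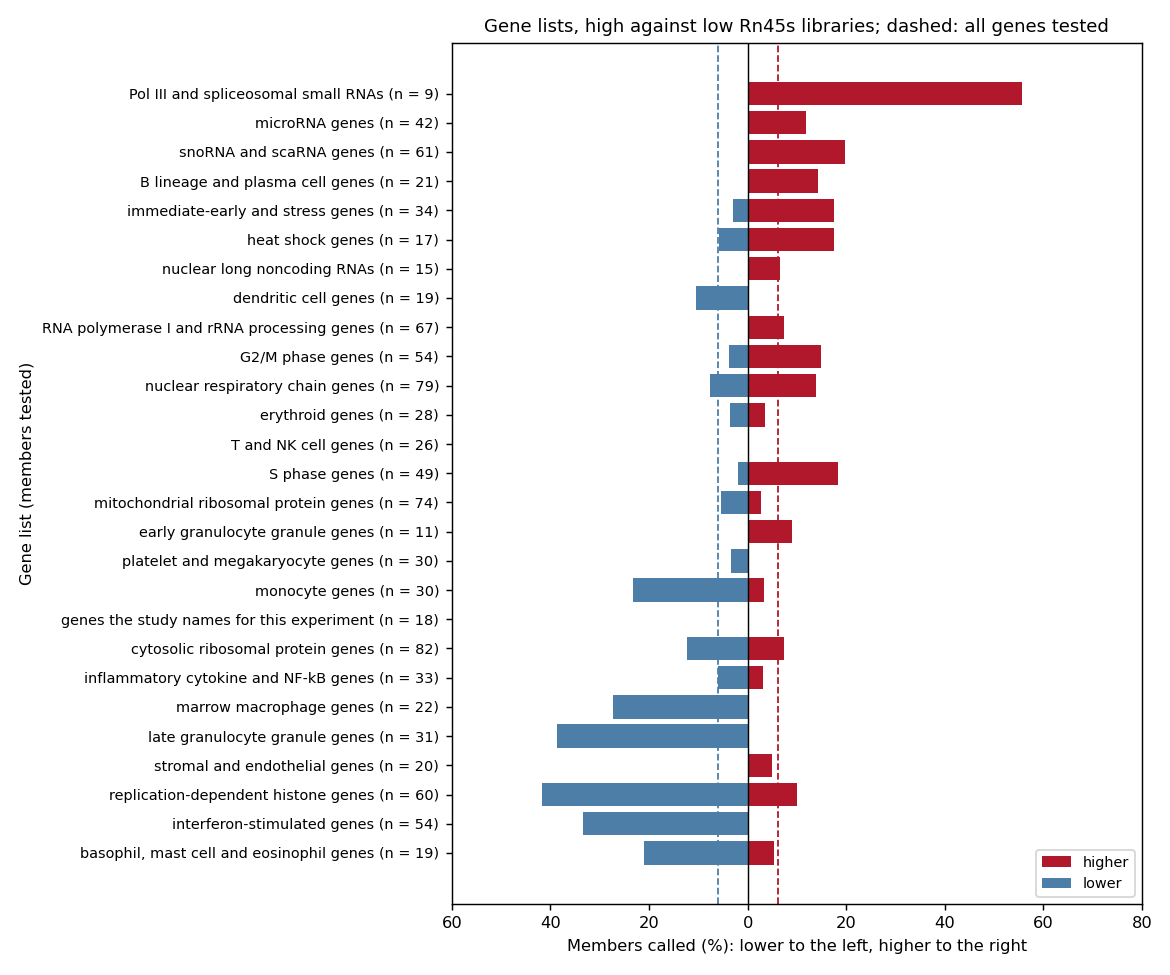
For each gene list with at least 9 tested members, bars give the percent of tested members that fell (blue, to the left) and rose (red, to the right) at an adjusted p under 0.05, with lists in order of their median log2 fold change and dashed lines at the shares of all genes tested, 6.08% and 6.22%. Small RNA lists lie to the right, and interferon-stimulated, histone and late granulocyte genes to the left.

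Called genes differed from all genes tested in base composition, level and, less so, length. The median GC content of the longest annotated transcript was 54.0% in genes that rose, 46.0% in genes that fell and 49.6% in all genes tested. Genes were divided into 5 equal bins by GC content. In the lowest bin (29.6% to 43.8%) 2.95% rose and 10.8% fell, and in the highest (55.4% to 73.1%) 13.3% rose and 2.44% fell. Spearman's rho of the log2 fold change with GC content was 0.267 across 12899 genes, 0.152 for the difference within PBS alone and 0.297 within EnzR EVs alone. The share of genes that rose was 8.80% in the shortest of 5 length bins and 3.84% in the longest, and the share that fell was 7.05% and 5.35%. The median of the mean log2 CPM was 5.09 in genes that rose and 5.67 in genes that fell, against 4.27 in all genes tested. The mean GC content of the counts without Rn45s was between 49.45% and 49.98% in the high libraries and between 48.4% and 48.9% in the low ones. Single genes went with and against this trend. Jund, at 67.1% GC, rose and Samd9l, at 38.8%, fell, while the chromosome 13 histone gene Hist1h2ag, at 64.3%, fell. The largest named increases with a GC value all lay below the 54.0% median of genes that rose. Zfp931 (33.2%), Rbbp4 (45.2%), Ptma (45.9%) and Snord15a (46.6%) also lay below the 49.6% of all genes tested. Snord15b, Lars2, Snora74a, Snord22, Snord17, Anp32b and 4930413G21Rik lay between 50.3% and 53.5%.

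**Figure D5:**
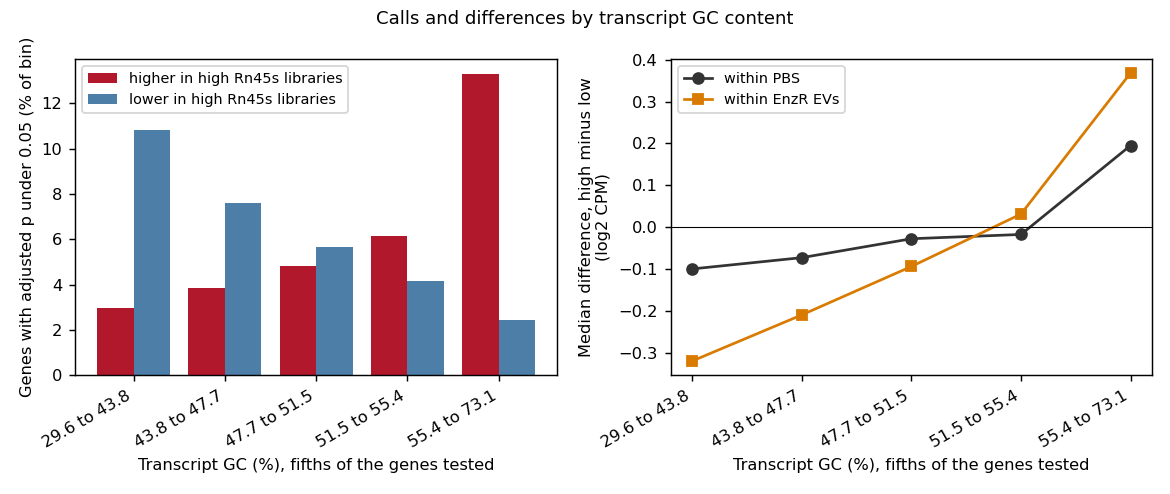
The left plot gives the percent of genes that rose (red) and fell (blue) in each of 5 bins of genes by transcript GC content, and the right plot the median difference in log2 CPM between high and low libraries within PBS (circles) and within EnzR EVs (squares). The share that rose goes from 2.95% to 13.3%, and both lines end higher in the last bin than they start in the first.

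Adding offsets for GC content to the fit, an alternative chosen after the data were seen, left 695 genes that rose and 619 that fell. Under these offsets 11 of 61 snoRNA genes rose and 28 of 60 histone genes fell, 16 of 54 interferon-stimulated genes fell, and 9 of 31 late granulocyte genes fell. Without EnzR EVs replicate 1, where 1100 genes rose and 1062 fell of all 12743 tested, the corresponding counts were 9 of 58 snoRNA genes higher, and 21 of 59 histone, 24 of 54 interferon-stimulated and 13 of 31 late granulocyte genes lower. The part of GC content in these differences was not tested further.

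At equal depth the high libraries also detected more genes with at least 1 count. With each library thinned to 1476546 counts, the high libraries detected 13650 ± 1060 genes with at least 1 count (SD, n = 3) and the low libraries 12729 ± 171 (SD, n = 6), a difference of 920.5 genes (two-sided exact permutation test over 84 arrangements, p = 0.0119, the smallest such a test can give). EnzR EVs replicate 1 detected 14878 genes, PBS replicate 1 13018 and EnzR EVs replicate 3 13053, and the low libraries between 12479 and 12900. Without EnzR EVs replicate 1 the difference was 306.3 genes. With at least 10 counts the difference was 182.3 genes (exact permutation test, p = 0.119), and with at least 3 counts it was 510.7 (exact permutation test, p = 0.0714). The classes overlapped at both cutoffs. With at least 3 counts PBS replicate 1 detected 10979 genes and EnzR EVs replicate 3 10962, against 11042 in the low library PBS replicate 3. With at least 10 counts EnzR EVs replicate 3 detected 8830 genes, against 8962 in EnzR EVs + HDL NPs replicate 1. Genes of olfactory, vomeronasal and taste receptors, which serve sensory neurons, had at least 1 count at this depth for 130 genes in EnzR EVs replicate 1, for 23 in PBS replicate 1, for 14 in EnzR EVs replicate 3 and for 5 to 14 in the low libraries. These genes held 0.0166% of the counts of EnzR EVs replicate 1 and at most 0.00144% of those of any other library.

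The class differences within PBS and within EnzR EVs were alike in sign for most genes. The difference of PBS replicate 1 from the other PBS libraries and that of EnzR EVs replicates 1 and 3 from replicate 2 had the same sign in 9550 of 13050 genes (73.2%), with a Pearson's r of 0.499 across genes and of 0.825 across the 5184 genes with a mean log2 CPM of at least 5. Of the 1606 called genes 1605 had the same sign, which the fit itself favours. An interaction of class and treatment, tested with edgeR as a contrast of those groups in a fit of all 9 libraries, passed in 0 genes at an adjusted p under 0.05 and in 448 at an unadjusted p under 0.05 (smallest adjusted p = 0.434), and with 1 library in 2 of its 4 cells this test has little power. The medians within the groups were not always equal. Over the snoRNA genes the median difference was 0.99 within PBS and 0.49 within EnzR EVs, and over histone genes it was -0.48 and -1.18.

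Treatment was tested with and without the class in the fit. EnzR EVs against PBS with treatment alone gave 0 of 12632 genes (0%) at an edgeR adjusted p under 0.05, with 447 genes at an unadjusted p under 0.05, and DESeq2 gave 14. With the class as a term edgeR called 1 of 13050 genes (0.00766%), with 453 at an unadjusted p under 0.05, and DESeq2 called 24. The 1 gene was Ifit1, an interferon-induced antiviral RNA-binding protein, with a log2 fold change of 1.91 ± 0.22 (edgeR quasi-likelihood test, adjusted p = 0.0204). This call is lost when PBS replicate 2 or 3, EnzR EVs replicate 2 or any 1 of the EnzR EVs + HDL NPs libraries is left out, and without EnzR EVs replicate 1 there were 26 calls.

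The 18 genes that the study names for this experiment did not pass for a class term common to both groups, with 0 of 18 at an edgeR adjusted p under 0.05. Of all 13050 genes tested, 6.22% rose and 6.08% fell. Lipg and Gbp2 had an unadjusted p under 0.05 in edgeR, as did 4118 of all genes. A class term averages differences within the groups, and in these 18 genes some differences were opposite. The difference between high and low libraries was 2.54 within PBS and -0.22 within EnzR EVs for Lipg, 2.21 and -0.70 for Steap4, and 0.70 and -1.09 for Vcan. Lipg had the smallest interaction p of all genes tested (edgeR, unadjusted p = 3.33e-05, adjusted p = 0.434). These genes were chosen by the study on the same libraries. For EnzR EVs against PBS the call depends on the tool and on single libraries. With edgeR 0 of the 18 passed with treatment alone and 0 with the class as a term (17 and 17 at an unadjusted p under 0.05), while with DESeq2 6 passed with treatment alone (Thbs1, Atf3, Rsad2, Irf4, Ptgs2 and Lipg) and 7 with the class as a term (these and Gbp2). With the class as a term and without EnzR EVs replicate 1, edgeR passed 6 (Thbs1, Gbp2, Rsad2, Oasl2, Atf3 and Irf4), and without PBS replicate 1 it passed 1 (Lipg), as it did with treatment alone. Thbs1, which encodes thrombospondin 1, stood at 1212 CPM in PBS replicate 1 and 2015 and 1920 CPM in the low PBS libraries, and at 627 and 653 CPM in the high EnzR EVs libraries and 705 CPM in the low one. Its log2 fold change of EnzR EVs against PBS was -1.36 with treatment alone and -1.20 with the class as a term, and its class term was -0.42 ± 0.20. Vcan, the gene of the matrix proteoglycan versican, went from 1.21 to 1.23, and Lipg, the gene of endothelial lipase, from 2.48 to 2.54. These values rest on single libraries. With the class as a term, Vcan was 0.31 without EnzR EVs replicate 2 and 2.08 without PBS replicate 1, and Lipg was 1.06 and 3.88.

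Gbp2, an interferon-induced GTPase, went from 1.52 to 1.80, with a class term of -1.11 ± 0.38 (edgeR, adjusted p = 0.0745). The interferon regulatory factor Irf4 went from -1.34 to -1.46 and Atf3, a stress-induced transcription factor, from -1.25 to -1.20. Ppbp, a platelet chemokine gene, moved most, from -1.34 to -0.42, and stood at 0.398 CPM in PBS replicate 1 and 0.615 CPM in EnzR EVs replicate 1 against 17.8 CPM in EnzR EVs replicate 3 and 5.49 to 42.2 CPM in the low libraries. With the class as a term it changed sign with 1 library left out, at 4.86 without EnzR EVs replicate 2 and -2.34 without PBS replicate 1, and it was 0.93 with DESeq2.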

How the data were processed

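RNA extraction is given as Trizol in the labels and as an RNeasy kit in the methods, and the part of this step in the small RNA levels was not tested. Libraries were made from 200 ng of total RNA per mouse with rRNA depletion and a stranded kit and read as 75 bp single ends. Per the labels and methods, the authors trimmed reads with cutadapt 1.13, filtered poor-quality and rRNA reads, aligned with STAR to mm10 and counted with HTSeq 0.6.1p1. The deposited values are raw counts per gene for each library, and the counting strand setting is not given in the sources used here, so overlapping antisense genes may share reads. The filter on rRNA reads came before counting, so Rn45s counts are what was left.

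Rn45s was removed, genes with low counts were filtered by edgeR's default, and TMM scaling and robust quasi-likelihood tests (edgeR 4.0.16 in R 4.3.3) were run on treatment plus class over all 9 libraries, with Benjamini-Hochberg adjustment at 0.05. Fold changes are those of the fit, their standard errors follow from the test statistic, and differences within a group use log2 CPM with a prior count of 2. Symbols were matched to GENCODE M21 (GRCm38). DESeq2 1.42.0, limma 3.58.1, other scalings, filters, thinning and left-out libraries were alternatives. The 12 highest and 12 lowest log2 fold changes among called genes with non-overlapping classes and a mean log2 CPM of at least 2 were named, with the 3 most abundant and the passing members of lists and the genes the study names. The classes, members and 31 gene lists were chosen with earlier results of these data known. Scripts were tested on simulated data.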

Additional observations from a re-analysis of the deposited data

Results flagged for a closer look

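Among the 6 low libraries, 8 of the named genes had 1 library far from the other 5, judged by its gap to the nearest library as a share of the whole range. In unrelated groups chance alone marks about 1 in 20, and 26 groups were examined. These genes were picked for their class difference and read in the same 6 libraries. They are not independent of each other, so the rate of 1 in 20 does not apply to them. In 7 of the 8 the library was EnzR EVs + HDL NPs replicate 3, the low library with the largest Rn45s share (2.87%). It held the highest low value of Snord17 (73.7 CPM), Snord15b (70.5 CPM), Snora74a (17.2 CPM), Snord22 (9.61 CPM), Snord15a (5.86 CPM) and Anp32b (81.1 CPM), and the lowest of Hist1h2bm (33.2 CPM). The other was Tgtp2, highest at 18.4 CPM in EnzR EVs + HDL NPs replicate 1.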

How the results depend on the processing

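Against 812 genes higher and 794 lower, the class without a treatment term gave 2148 and 2014, the log2 Rn45s percent as a continuous term 1663 and 1781, DESeq2 1231 and 1323, and the PBS and EnzR EVs libraries alone 13 and 12. Library size as the only scaling gave 1218 and 490, and thinning to equal depth 562 and 522. Leaving out 1 library at a time gave 0 to 1614 higher and 0 to 1591 lower. The cause of these shifts was not tested. Replicate numbers repeat across groups, but same-numbered libraries deviated together only in part (mean r 0.168, from -0.149 to 0.464), so they were not taken as pairs; with a replicate block 0 genes were called higher and 0 lower.

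For EnzR EVs against PBS with the class as a term (1 gene), DESeq2 called 24, library size alone 0, a replicate block 0, and leaving out 1 library 0 to 26. With treatment alone (0 genes) DESeq2 called 14, a replicate block 1, and leaving out 1 library 0 to 1. The difference in genes detected was 510.7 with at least 3 counts, 182.3 with at least 10, and 306.3 to 1236 when leaving out 1 library. Of the single named genes under alternatives, Mthfs reversed, at 0.204 when thinned to equal depth, and 468 values kept direction and call and 171 kept direction and lost the call. Depth limits low genes most in EnzR EVs replicate 1, where 3 counts are 1.845 CPM.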
